A study of Mus musculus with 12 samples.

Results

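Bulk RNA-seq libraries from 2 sets of mouse small intestinal organoids given the same labelled treatment were compared gene by gene. The sets are the 3 libraries of the group RANKL and the 3 libraries of the group RANKL II, which together make 6 of the 12 libraries of the series, and they were taken by their group labels. Both sets are labelled line26 wild type, Lgr5GFPDTR/+, and come from organoids of a female mouse in which 1 allele of the stem cell gene Lgr5 holds GFP joined to the diphtheria toxin receptor. Both were given 3 µM CHIR99021, an inhibitor of the kinase GSK3 that raises Wnt signalling, with 1.5 mM valproic acid, a histone deacetylase inhibitor, over 3 days. They were then kept for 1 day in ENR, a medium with EGF, Noggin and R-spondin, and for 6 days with RANKL at 100 ng/mL. Per its label, RANKL II is the RANKL set made for the experiments with CSRM617, and its counts share a table with those of the RANKL+CSRM617 group, which received 40 µM CSRM617 as well. The RANKL counts share the other table with the ENR control group, kept in ENR medium for 6 days. No CHIR99021 or valproic acid is recorded for that group.

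The series' design text calls the replicates separate differentiation experiments. All libraries come from organoids of 1 line of 1 mouse as far as the labels say, so the p-values do not measure the spread between animals. The RANKL II libraries differed from each other by little more than sampling noise, as given below, and whether they came from separate cultures was not tested. If they did not, the standard errors and p-values of every comparison here would be too small. Each set is also 1 count table, so that a difference between the sets and a difference between experiments, library batches or sequencing runs cannot be told apart. The question asked here was which genes had the same level in both sets and which did not.

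RANKL is the ligand of RANK, a receptor of the TNF receptor family encoded by Tnfrsf11a. It signals through TRAF adaptors to the canonical NF-kB subunits and, through the kinase NIK, to the RelB and p52 subunits of the non-canonical pathway. In the epithelium over Peyer's patches, RANKL from stromal cells induces Spib and then the programme of M cells, which carry antigens from the lumen to immune cells. Crypt stem cells, kept by Wnt and Notch signals, and their dividing progeny give rise in the same organoids to absorptive enterocytes, Paneth, goblet, enteroendocrine and tuft cells.

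Library totals were 6351155 to 7719157 counts in RANKL and 8669153 to 11241811 in RANKL II. The 8 epithelial markers summed to 3761 to 3857 CPM, reads of a gene per 1e6 reads of its library, in RANKL and 4407 to 4622 in RANKL II. The 6 immune markers summed to 0.981 to 2.11 CPM and 3.03 to 3.51 CPM, with Adgre1 at 0 in both sets and Cd79a at 0 in RANKL. The 6 stromal and endothelial markers summed to 1.32 to 2.20 CPM and 1.01 to 1.39 CPM, with Col1a2, Col3a1 and Cdh5 at 0 in both sets. The 8 M cell markers summed to 850.4 to 882 CPM in RANKL and 967 to 1029 CPM in RANKL II. These marker sums were scaled with all 12 libraries together. The values of single genes given below were scaled over the 6 libraries of the sets, so they do not add up to these sums. Counts from the ribosomal RNA loci Gm26917 and Gm42418 made up 10.1% ± 0.54 of RANKL libraries and 6.60% ± 0.14 of RANKL II libraries (SD, n = 3). Mitochondrially encoded mRNA made up 2.73% ± 0.20 and 6.02% ± 0.012, and Malat1, a nuclear noncoding RNA, 2.68% ± 0.24 and 3.38% ± 0.063. The sets did not overlap in any of these 3 shares, and the exact two-sided permutation test gave p = 0.10 for each, the smallest value that 3 against 3 libraries can give.

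Of 14040 genes with enough counts to be tested, most had similar levels in both sets, and a minority differed by a large factor. A gene was called different in level when the difference exceeded 1.5-fold by edgeR's glmTreat test at a Benjamini-Hochberg adjusted p under 0.05. It was counted as in agreement when the 95% interval of its difference lay wholly within 1.5-fold in either direction, an interval that is not adjusted over genes. By these rules 7949 genes (56.6%) agreed within 1.5-fold, 417 (2.97%) were higher in RANKL II past 1.5-fold and 840 (5.98%) were lower. The other 4834 genes (34.4%) met neither rule. With no fold bound, edgeR's quasi-likelihood test called 7227 genes (51.5%) different, 3622 (25.8%) higher and 3605 (25.7%) lower in RANKL II, so small differences were common. The sets did not overlap in 8163 genes (58.1%).

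The typical difference between the sets was small but exceeded the difference between replicates. The median absolute log2 difference between 2 libraries of RANKL was 0.12 to 0.15, that between 2 libraries of RANKL II was 0.092 to 0.096, and that between a library of each set was 0.28 to 0.30. The share that agreed varied with level: 18.2% of genes at 1 to 10 CPM agreed within 1.5-fold, against 71.8% at 10 to 100 CPM and 84% at 100 to 1000 CPM. Of the 42 genes above 1000 CPM, 57.1% did so and 21.4% were higher in RANKL II past 1.5-fold. Among genes at 1 to 10 CPM 69.9% met neither rule, so that most of them could not be placed at this depth. The 3 RANKL II libraries were closer to each other than those of RANKL. The biological coefficient of variation, the spread between replicates beyond counting noise, was 0.0205 in RANKL II and 0.0570 in RANKL. Pairs of RANKL II libraries still differed beyond sampling noise, with a chi-square per degree of freedom of 1.10 to 1.43 against 2.25 to 4.21 in RANKL, and were counted as 3 samples. With the RANKL II libraries summed to 1, 321 genes were higher and 715 lower past 1.5-fold.

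The difference also varied with base composition. Genes with a transcript GC content under 40% had a median log2 difference of 0.14 and those over 60% one of -0.26, and the part of GC content in the gene results was not tested. With a correction for GC content, 19 of 20 proliferation genes were lower past 1.5-fold and 16 of 19 RANK and NF-kB genes lay within it. The median log2 difference moved from -1.55 to -1.63 for proliferation genes and from -0.98 to -0.90 for stem cell genes. For enterocyte genes it moved from 0.29 to 0.21. Over all genes 410 were then higher and 804 lower past 1.5-fold.

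**Figure D1:**
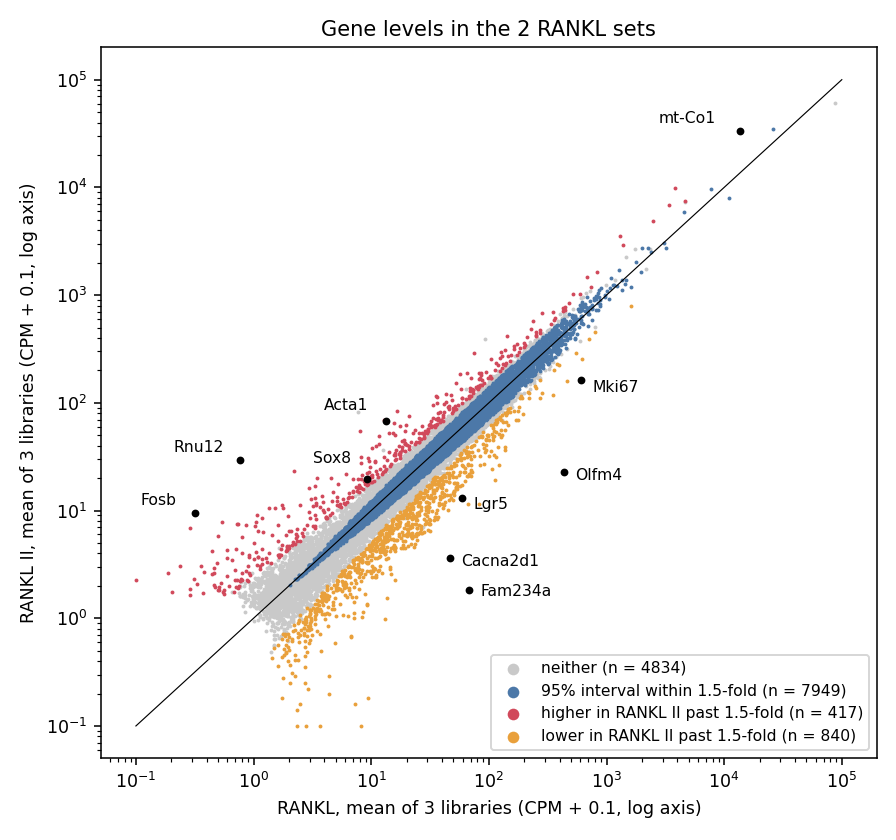
Mean level of each of 14040 genes in RANKL (horizontal axis) and RANKL II (vertical axis), in CPM with 0.1 added, on log axes. Colours mark the 7949 genes within 1.5-fold, the 417 higher and 840 lower past 1.5-fold and the 4834 that met neither rule; the line is equality, and most genes lie near it while Fam234a, Olfm4, Cacna2d1 and Rnu12 lie far from it.

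Most RANK and NF-kB genes differed by less than 1.5-fold between the sets: 16 of 19 tested lay within that bound, beside 56.6% of all genes. With no fold bound 4 were higher and 7 lower by edgeR's quasi-likelihood test, beside 25.8% and 25.7% of all genes. Past 1.5-fold 1 was higher and 0 lower, with a median log2 difference of -0.056 (all genes, 0.0077). Values below are CPM in libraries 1, 2 and 3 of each set, in that order, and each log2 difference is RANKL II minus RANKL with its SE. The receptor gene Tnfrsf11a (chr1:105780718-105847981 on the + strand, GRCm38) was at 265, 299.6 and 287 CPM in RANKL and 271, 277 and 279 CPM in RANKL II. The sets overlapped, and the log2 difference was -0.040 ± 0.044 with a 95% interval from -0.13 to 0.051. Relb, a non-canonical subunit, was at 174, 181 and 185 CPM in RANKL and 177, 169.6 and 172 CPM in RANKL II, again with overlap and an interval from -0.14 to 0.032.

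Nfkb2, the precursor of p52, was at 476, 467 and 443 CPM in RANKL and 387, 384 and 379 CPM in RANKL II, and Nfkbia, the inhibitor that NF-kB itself induces, was at 499.9, 504 and 524 CPM in RANKL and 445, 441 and 432 CPM in RANKL II. Both were lower in every RANKL II library than in every RANKL library, by a log2 difference of -0.27 ± 0.038 and -0.21 ± 0.037, and both intervals stayed within 1.5-fold. Tnfaip3, a deubiquitinase that limits NF-kB signalling, differed by 0.12 ± 0.039. The exception was Birc3, an inhibitor of apoptosis that acts in TRAF complexes, at 86.9, 82.6 and 85.5 CPM in RANKL and 187, 189.8 and 189 CPM in RANKL II. Every RANKL II library was above every RANKL library, with a log2 difference of 1.15 ± 0.045 (glmTreat adjusted p = 4.58e-10). Traf3, an adaptor, at -0.60 ± 0.045, and Bcl3, an atypical IkB protein, at -0.47 ± 0.060, met neither rule and are named because they were the remaining members.

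Of the 21 M cell genes tested of 23 on the list, 10 lay within 1.5-fold, 2 were higher, 0 lower and 9 met neither rule, with a median log2 difference of 0.17. The share within 1.5-fold was 47.6%, beside 56.6% of all genes, and the share higher 9.52%, beside 2.97%. In bulk RNA, fewer cells of a type and less RNA per cell cannot be told apart, here and in the cell type lists that follow. Spib, the transcription factor that starts the M cell programme (chr7:44525993-44532071, - strand), was at 299, 290.3 and 281 CPM in RANKL and 259.9, 253 and 248 CPM in RANKL II. The RANKL II libraries were all lower, by a log2 difference of -0.19 ± 0.040 and an interval from -0.28 to -0.11, which is within 1.5-fold. Anxa5, a phospholipid-binding protein, was at 345, 349.8 and 378 CPM in RANKL and 379, 384 and 405 CPM in RANKL II, and Ccl9, a chemokine of M cells, at 127, 109 and 97.8 CPM in RANKL and 144, 143 and 137 CPM in RANKL II. Both were higher in every RANKL II library and within 1.5-fold, as were Serpinb6a (0.36 ± 0.038), a protease inhibitor, and Clu (0.39 ± 0.077), a secreted chaperone.

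Sox8, a transcription factor that M cells need to mature (chr17:25565892-25570686, - strand), was at 9.63, 9.28 and 8.40 CPM in RANKL and 21.7, 18.6 and 18.6 CPM in RANKL II. Prnp, the prion protein gene and an M cell surface marker, was at 89.1, 102 and 102 CPM in RANKL and 162, 168 and 174 CPM in RANKL II. In both genes every RANKL II library exceeded every RANKL library. The log2 difference was 1.10 ± 0.12 for Sox8 (glmTreat adjusted p = 0.000702) and 0.79 ± 0.052 for Prnp (glmTreat adjusted p = 0.00126). DESeq2's test against the same bound gave adjusted p = 0.0546 and 0.0915, so neither call held there. Gp2, the bacterial uptake receptor of mature M cells, was low in both sets, at 3.17, 2.42 and 2.44 CPM in RANKL and 2.02, 2.36 and 2.76 CPM in RANKL II. Its sets overlapped, and its interval from -0.68 to 0.37 reached beyond 1.5-fold.

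Ccl20, the chemokine that attracts immune cells to the follicle epithelium, was at 139, 111 and 106 CPM in RANKL and 162, 158 and 168 CPM in RANKL II. Its RANKL II libraries were all higher, with an interval from 0.26 to 0.65 that crosses 1.5-fold. Tnfaip2, an M cell marker linked to membrane tubes, was at 14.7, 12.1 and 10.7 CPM in RANKL and 5.59, 7.57 and 7.18 CPM in RANKL II. All RANKL II libraries were lower, but the difference of -0.88 ± 0.15 did not pass 1.5-fold (glmTreat adjusted p = 0.0871). Without RANKL replicate 3 it was -0.98 and passed (glmTreat adjusted p = 0.0192). Onecut2, the transcription factor that CSRM617 inhibits, was at 530.3, 499 and 492 CPM in RANKL and 631, 620.3 and 630.1 CPM in RANKL II. It was higher in every RANKL II library and within 1.5-fold, with an interval from 0.23 to 0.39.

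**Figure D2:**
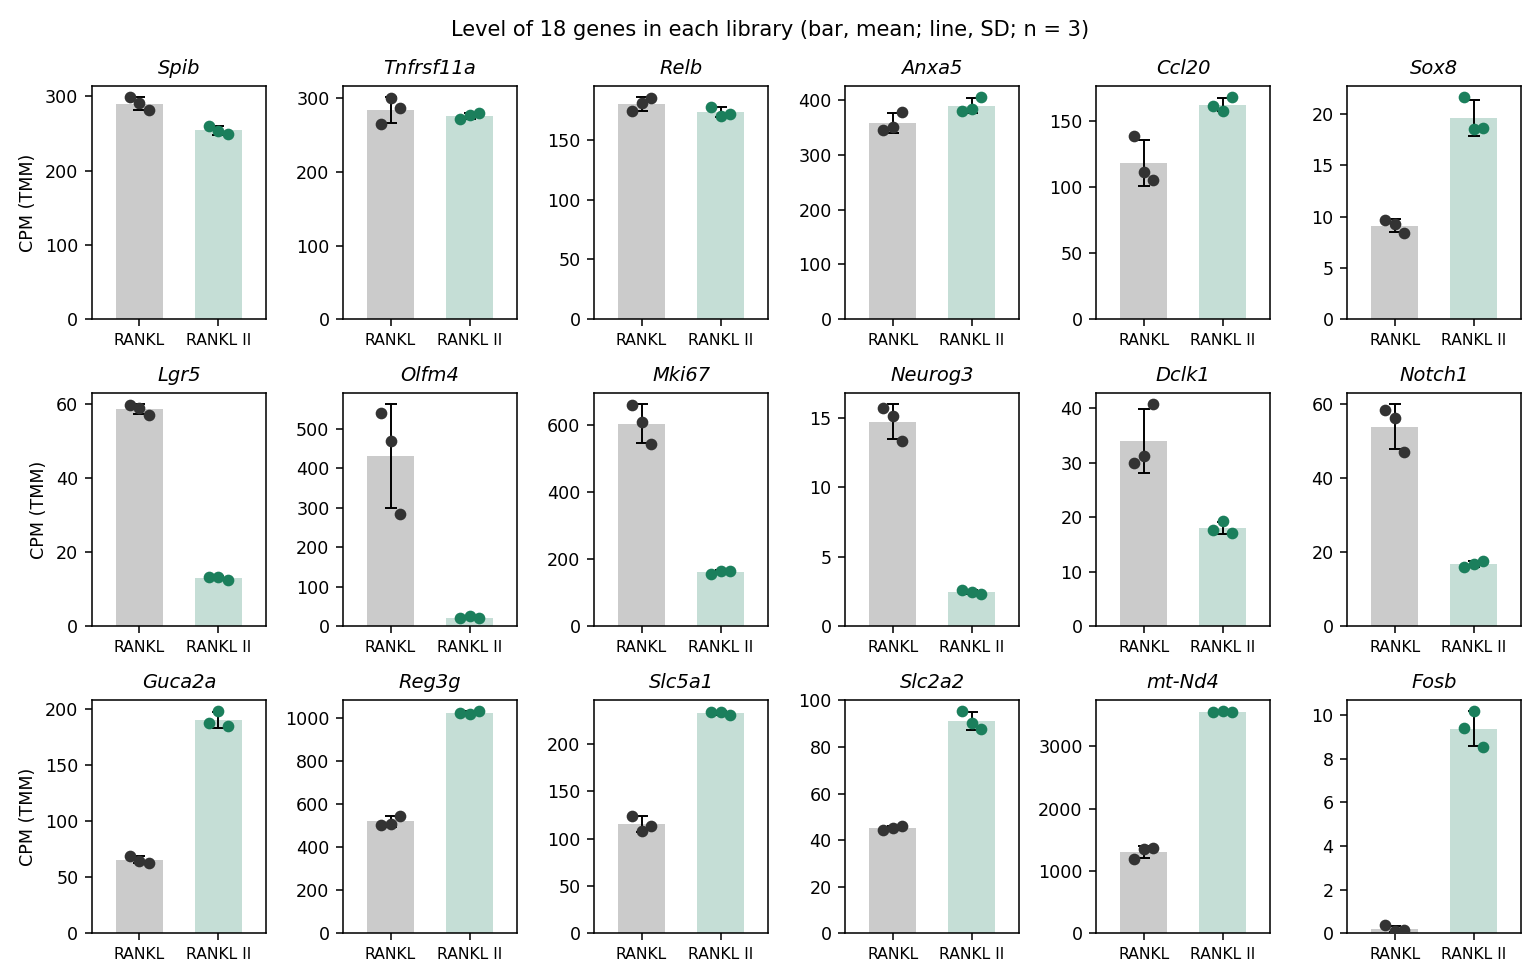
Level in CPM after TMM scaling (vertical axes, from 0) of 18 genes in each of the 3 RANKL (grey) and 3 RANKL II (green) libraries; bars are means, lines SD. Top row, RANK, NF-kB and M cell genes, of which only Sox8 of the 6 passed 1.5-fold; middle row, stem, proliferation, progenitor, tuft and Notch genes, all lower in RANKL II; bottom row, differentiated, mitochondrial and immediate early genes, all higher in RANKL II.

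The stem cell genes were lower in RANKL II: 12 of 18 tested of 19 on the list fell past 1.5-fold, 0 rose and 6 lay within 1.5-fold, with a median log2 difference of -0.98. Over all genes 5.98% were lower past 1.5-fold. Lgr5, the R-spondin receptor that marks crypt stem cells (chr10:115450311-115587780, - strand), was at 59.9, 59.1 and 57.3 CPM in RANKL and 13.3, 13.4 and 12.5 CPM in RANKL II. No libraries overlapped, and the log2 difference was -2.17 ± 0.080 (glmTreat adjusted p = 1.22e-12). Olfm4, a secreted glycoprotein of stem and early progenitor cells, was at 539, 469 and 285 CPM in RANKL and 20.1, 25.9 and 21.4 CPM in RANKL II. Its RANKL libraries were uneven, replicate 3 being the lowest, yet even that library was far above all 3 of RANKL II, and the log2 difference was -4.27 ± 0.36 (glmTreat adjusted p = 0.00388). With the 3 RANKL II libraries summed to 1, that adjusted p was 0.186.

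Ascl2, the Wnt-driven transcription factor of stem cells, was at 37.2, 32.2 and 25.2 CPM in RANKL and 7.26, 9.10 and 7.73 CPM in RANKL II. Sox9, a crypt transcription factor, Ephb3, a receptor that positions cells along the crypt, and Smoc2, a matrix protein of stem cells, differed by -1.22 ± 0.050, -1.33 ± 0.060 and -1.11 ± 0.057, without overlap. Members that did not fall past 1.5-fold included Slc12a2, an ion transporter at 1354, 1415 and 1281 CPM in RANKL and 1130.5, 1114 and 1133 CPM in RANKL II, and Prom1, a membrane glycoprotein at 189.8, 247 and 253 CPM in RANKL and 277, 282 and 272 CPM in RANKL II. Slc12a2 was lower in every RANKL II library and Prom1 higher, both within 1.5-fold.

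Wnt targets, a list that shares Lgr5 and Ascl2 with the stem cell list, were divided. Of 10 tested of 16, 5 (50%) were lower past 1.5-fold, beside 5.98% of all genes. The list had 0 higher and 4 within 1.5-fold, and its median of -0.92 moved to -0.31 with no filter on low counts. The 5 lower became 2 without RANKL replicate 2 or RANKL II replicate 3, 3 without RANKL II replicate 2 and 3 with DESeq2. Axin2, a feedback inhibitor of Wnt signalling, was at 325, 267 and 220.5 CPM in RANKL and 107, 114 and 109.6 CPM in RANKL II, a log2 difference of -1.30 ± 0.16 (glmTreat adjusted p = 0.0292). The difference kept its size but not the call without RANKL replicate 2 (-1.32, glmTreat adjusted p = 0.0849) or without RANKL II replicate 1, 2 or 3 (-1.28, -1.32 and -1.29, glmTreat adjusted p = 0.0808, 0.0869 and 0.093). The ubiquitin ligases Rnf43 and Znrf3, which remove Wnt receptors, differed by -0.31 ± 0.040 and -0.21 ± 0.068, and Ccnd1, a cyclin, by 0.10 ± 0.043, all within 1.5-fold. Among 8 Notch genes tested of 11, 6 were lower and 0 higher by the quasi-likelihood test, beside 25.7% and 25.8% of all genes. Their median log2 difference was -0.43. Only the receptor Notch1 passed 1.5-fold. It was at 58.5, 56.3 and 47.1 CPM in RANKL and 16.1, 16.8 and 17.6 CPM in RANKL II, without overlap (log2 difference -1.68 ± 0.091, glmTreat adjusted p = 8.56e-10), while the Notch target Hes1 was at 49.8, 47.2 and 45.4 CPM in RANKL and 48.8, 50.7 and 50.4 CPM in RANKL II, with overlap and within 1.5-fold.

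Cell division genes fell as a block: 19 of 20 were lower past 1.5-fold in RANKL II and 0 lay within 1.5-fold, with a median log2 difference of -1.55. Over all genes 5.98% were lower past 1.5-fold and 56.6% lay within it. The remaining member, Pcna, the DNA polymerase clamp, differed by -0.63 ± 0.080 and met neither rule. Promoter windows are shown here for 3 of these genes, which hold both a CHR element (TTTGAA) and CCAAT boxes, motifs known from cell cycle promoters. Of the 6 proliferation genes whose windows hold TTTGAA, they are the 3 with the largest falls in RANKL II. The windows are the 250 bases before the transcription start, written 5′ to 3′ on the gene's strand, from the RefSeq promoter table on GRCm38.p6. Capitals mark TTTGAA and CCAAT on either strand.
Mki67: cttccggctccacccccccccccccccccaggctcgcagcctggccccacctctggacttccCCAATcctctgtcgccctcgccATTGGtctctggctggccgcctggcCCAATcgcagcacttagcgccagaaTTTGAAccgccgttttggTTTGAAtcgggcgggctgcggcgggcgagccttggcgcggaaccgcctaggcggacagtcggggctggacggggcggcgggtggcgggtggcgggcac
Cdc20: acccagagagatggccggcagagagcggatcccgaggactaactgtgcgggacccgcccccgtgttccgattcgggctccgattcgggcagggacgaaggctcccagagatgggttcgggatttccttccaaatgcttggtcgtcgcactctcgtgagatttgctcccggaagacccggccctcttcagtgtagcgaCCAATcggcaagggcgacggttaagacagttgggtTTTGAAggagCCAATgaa
Top2a: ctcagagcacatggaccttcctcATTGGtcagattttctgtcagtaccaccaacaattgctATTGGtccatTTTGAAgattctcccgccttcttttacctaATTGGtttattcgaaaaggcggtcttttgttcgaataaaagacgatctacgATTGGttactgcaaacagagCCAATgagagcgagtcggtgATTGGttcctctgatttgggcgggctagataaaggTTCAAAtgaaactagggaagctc
Mki67 encodes a coat protein of mitotic chromosomes, Cdc20 an activator of the anaphase-promoting complex and Top2a a topoisomerase. Their windows are at chr7:135716380-135716629, chr4:118437344-118437593 and chr11:99024190-99024439, all on the - strand.

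A CCAAT box on either strand was found in 16 of 18 windows of the proliferation genes (88.9%), which belong to the 17 members in the table, against 35.7% of 12489 windows of tested genes and 33.9% of all 32841 windows. TTTGAA was found in 6 of the 18 (33.3%), against 10.9% and 16%. E2F sites, searched as TTTCCCGC, TTTGGCGC, TTTCGCGC and TTTGCCGC, were found in 4 of the 18 (22.2%), against 3.34% and 1.86%. TTTGAA and CCAAT overlapped in 40 of all windows, CCAAT and an E2F site in 4 and TTTGAA and an E2F site in 0. Among the 20 windows of RANK and NF-kB genes, 2 held CCAAT, 0 TTTGAA and 1 an E2F site. The stem cell genes, a list that was also lower in RANKL II, had 17 windows, of which 7 held CCAAT, 0 TTTGAA and 1 an E2F site. In the 767 windows of all genes lower past 1.5-fold, 41.7% held CCAAT, 14.2% TTTGAA and 7.04% an E2F site. These are matches of letters, not measured binding.

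Mki67 itself (chr7:135689784-135716361, - strand) was at 658, 607 and 541 CPM in RANKL and 157, 164 and 165 CPM in RANKL II, and the log2 difference was -1.90 ± 0.061 (glmTreat adjusted p = 5.54e-10). All 3 RANKL II libraries were below all 3 RANKL libraries. Aurkb, a kinase of the chromosomal passenger complex, was at 34.2, 32.2 and 25.97 CPM in RANKL and 7.50, 7.68 and 7.00 CPM in RANKL II, and Mcm5, a subunit of the replicative helicase, at 68.4, 61.6 and 58.5 CPM in RANKL and 19.8, 17.6 and 18.5 CPM in RANKL II. Neither gene overlapped between the sets, and the log2 differences were -2.07 ± 0.12 and -1.76 ± 0.082. Cdc20 and Top2a differed by -1.77 ± 0.12 and -1.58 ± 0.086.

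Histone genes of the Hist clusters, whose mRNA is made in S phase and, lacking a poly(A) tail, is kept by ribosomal depletion, moved with them. Of 55 tested, 41 (74.5%) were lower past 1.5-fold, beside 5.98% of all genes. The list had 0 higher and 1 within 1.5-fold, with a median log2 difference of -1.49. Hist1h3b was at 29.01, 23.01 and 18.8 CPM in RANKL and 5.24, 4.73 and 4.51 CPM in RANKL II, Hist1h2bh at 38.8, 29.2 and 26.6 CPM in RANKL and 5.95, 6.15 and 6.91 CPM in RANKL II and Hist1h3c at 33.3, 32.8 and 25.1 CPM in RANKL and 6.78, 5.79 and 6.72 CPM in RANKL II. In these 3 genes the sets did not overlap, and the log2 differences were -2.31 ± 0.16, -2.31 ± 0.15 and -2.25 ± 0.13. Hist1h4c was the member within 1.5-fold, at -0.43 ± 0.072; without RANKL replicate 1 there were 4 such members and without RANKL replicate 3 there were 0. These genes are near copies of each other, so reads may have been divided among them and single values are uncertain.

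**Figure D3:**
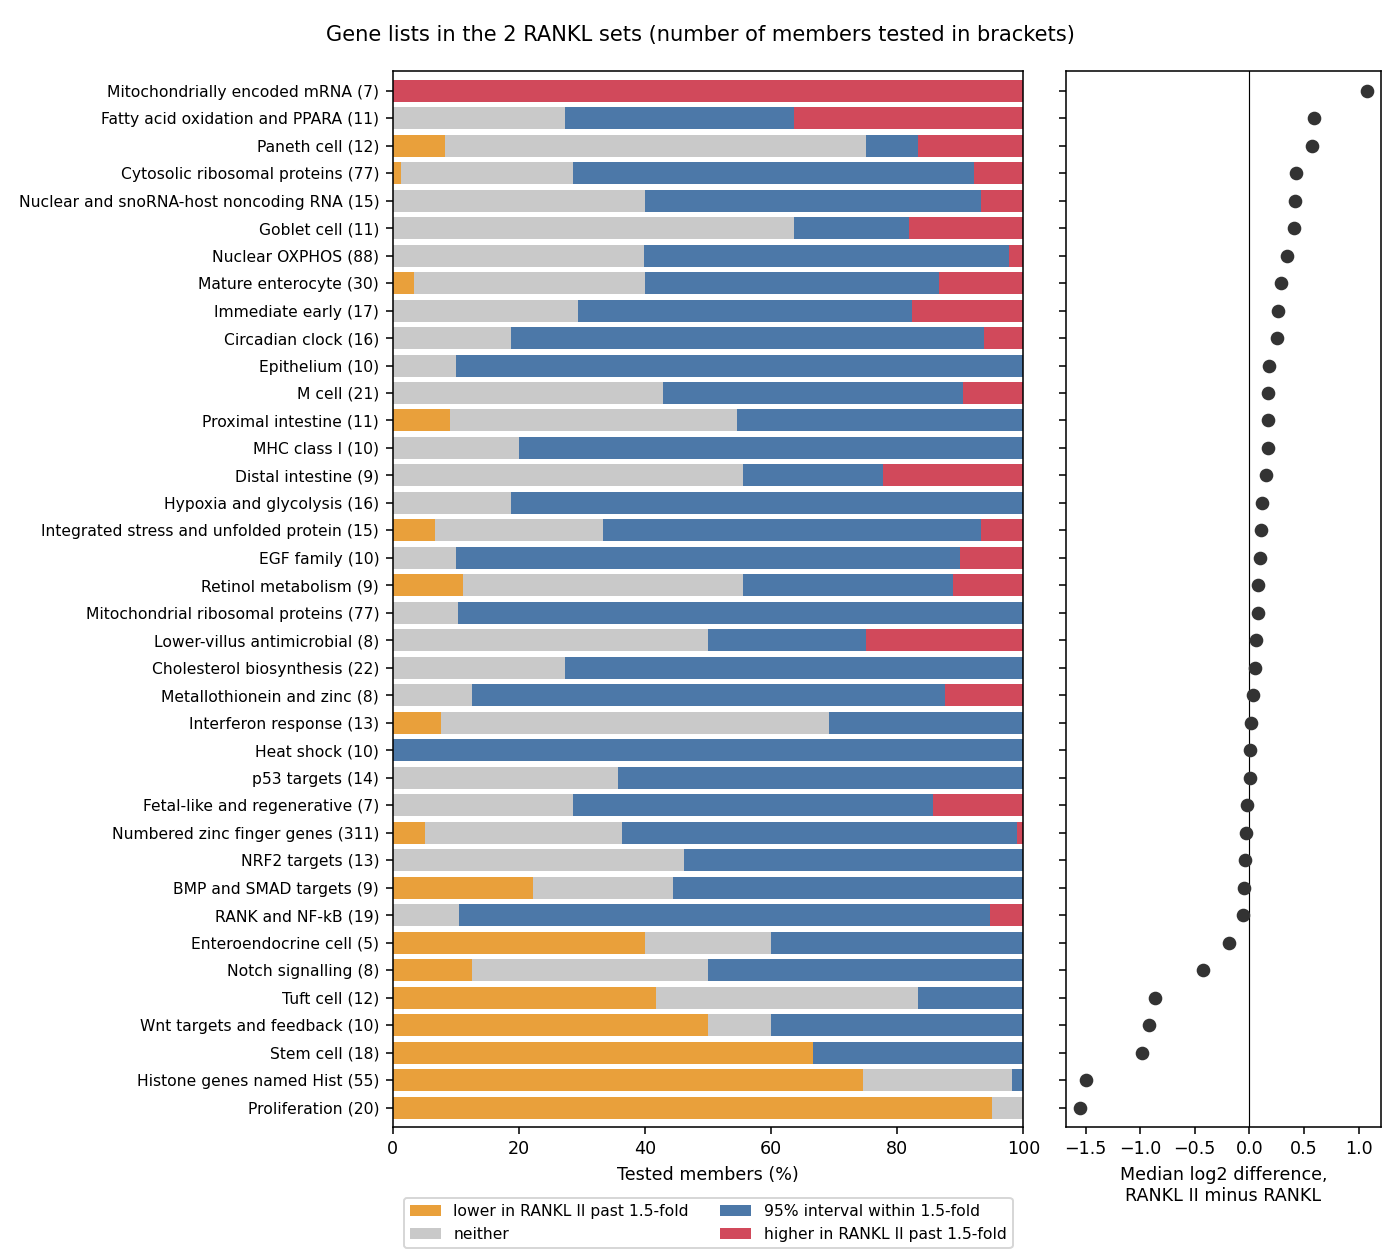
Left, share of tested members of each gene list in each class (%); right, median log2 difference of the list, RANKL II minus RANKL. Proliferation, histone, stem cell, Wnt and tuft cell lists lie at the bottom with medians of -1.55 to -0.87, RANK and NF-kB and heat shock genes near 0, and mitochondrially encoded mRNA at the top with 1.07.

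The enteroendocrine and tuft cell lists held genes that were lower in RANKL II and 0 that were higher past 1.5-fold. In the enteroendocrine list 5 of 14 genes could be tested, and 2 (40%) were lower past 1.5-fold, beside 5.98% of all genes. Neurog3, the transcription factor of endocrine progenitors, was at 15.7, 15.1 and 13.3 CPM in RANKL and 2.62, 2.48 and 2.30 CPM in RANKL II, and Insm1, which follows it, at 6.46, 4.70 and 6.57 CPM in RANKL and 1.55, 2.01 and 1.10 CPM in RANKL II. Both were lower in all RANKL II libraries, by -2.59 ± 0.16 (glmTreat adjusted p = 1.54e-09) and -1.95 ± 0.25 (glmTreat adjusted p = 5.82e-05). The granule genes of mature cells, Chga at 3.04, 4.58 and 4.58 CPM in RANKL and 3.09, 3.66 and 5.16 CPM in RANKL II and Chgb at 15.7, 17.4 and 20.3 CPM in RANKL and 15.5, 15.8 and 15.5 CPM in RANKL II, overlapped between the sets and lay within 1.5-fold. With any 1 library left out, 1 gene of the list lay within it.

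Of 12 tuft cell genes tested of 15, 5 (41.7%) were lower past 1.5-fold, beside 5.98% of all genes. The list had 0 higher past it and a median of -0.87. Pou2f3, the tuft cell transcription factor, was at 21.8, 25.7 and 26.3 CPM in RANKL and 9.28, 11.3 and 7.83 CPM in RANKL II, and Trpm5, the taste transduction channel, at 59.4, 64.3 and 81.1 CPM in RANKL and 34.7, 35.1 and 35.1 CPM in RANKL II. Hpgds, which makes prostaglandin D2, was at 6.84, 8.39 and 9.17 CPM in RANKL and 2.14, 1.89 and 2.30 CPM in RANKL II. None of the 3 overlapped, and the log2 differences were -1.39 ± 0.13, -0.96 ± 0.097 and -1.93 ± 0.20. Sh2d7 also fell, by 1.29 ± 0.15. Dclk1, a kinase that marks tuft cells, was at 29.9, 31.3 and 40.8 CPM in RANKL and 17.7, 19.3 and 17.2 CPM in RANKL II, lower without overlap (-0.90 ± 0.11, glmTreat adjusted p = 0.0129). The Dclk1 call was lost without RANKL replicate 3 (-0.77, glmTreat adjusted p = 0.0742), RANKL II replicate 1 (-0.89, 0.0518) and RANKL II replicate 3 (-0.86, 0.0795), and with DESeq2 (-0.91, adjusted p = 0.256). Ptgs1 and Sh2d6 lay within 1.5-fold, but 0 or 1 tuft cell gene did so with any 1 library left out.

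A few goblet and Paneth cell genes were higher in RANKL II. Of 11 goblet genes tested of 13, 2 were higher past 1.5-fold and 0 lower, and of 12 Paneth genes tested of 15, 2 were higher and 1 lower, beside 2.97% of all genes that were higher. Guca2a, the precursor of guanylin, was at 69.2, 64.8 and 63.1 CPM in RANKL and 187, 198 and 184 CPM in RANKL II, and Clca1, a secreted mucus protein, at 75.1, 88.2 and 80.4 CPM in RANKL and 141, 144 and 140.2 CPM in RANKL II. Both were higher without overlap, by 1.53 ± 0.050 (glmTreat adjusted p = 1.32e-12) and 0.80 ± 0.053 (glmTreat adjusted p = 0.000961), and the Clca1 call was lost with DESeq2 (adjusted p = 0.0792). Muc2, the main gel-forming mucin, was at 111, 125 and 91.5 CPM in RANKL and 152, 155 and 153 CPM in RANKL II, higher in every RANKL II library but with an interval from 0.28 to 0.68 that crosses 1.5-fold.

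Lyz1, the Paneth cell lysozyme, was at 46.9, 38.5 and 37.1 CPM in RANKL and 48.3, 50.8 and 53.03 CPM in RANKL II. Every RANKL II library exceeded every RANKL library, and the interval from 0.14 to 0.48 lay within 1.5-fold. The alpha-defensin gene Defa24 was at 22.04, 15.5 and 20.2 CPM in RANKL and 48.8, 56.6 and 57.1 CPM in RANKL II, a log2 difference of 1.50 ± 0.10, and Defa30 at 4.81, 3.30 and 3.51 CPM in RANKL and 7.85, 11.1 and 9.94 CPM in RANKL II. Alpha-defensin genes are near copies, so these values are uncertain, and the Defa30 call was lost with DESeq2 (adjusted p = 0.0892). Pla2g2a, a secreted phospholipase, went the other way, at 4.81, 4.96 and 4.12 CPM in RANKL and 0.83, 1.65 and 1.20 CPM in RANKL II (-1.93 ± 0.26, glmTreat adjusted p = 0.000129).

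A few transporters and enzymes of enterocytes were higher in RANKL II. Of 30 enterocyte genes tested, 14 (46.7%) lay within 1.5-fold, beside 56.6% of all genes, 4 were higher, 1 was lower and 11 met neither rule, with a median of 0.29. Without RANKL replicate 3 the median was 0.16 and 19 lay within 1.5-fold. Alpi, the brush border alkaline phosphatase, was at 304, 266 and 244 CPM in RANKL and 266, 264 and 263 CPM in RANKL II, and Apob, the structural protein of chylomicrons, at 1516, 1457 and 1436 CPM in RANKL and 1393, 1384 and 1386 CPM in RANKL II. Alpi overlapped and Apob was slightly lower in all RANKL II libraries, both within 1.5-fold. Slc5a1, the sodium-glucose cotransporter, was at 124, 108 and 114 CPM in RANKL and 234, 234 and 230.4 CPM in RANKL II, and Slc2a2, the basolateral glucose transporter, at 44.3, 45.4 and 45.99 CPM in RANKL and 95.4, 90.3 and 87.9 CPM in RANKL II. Both were about 1 log2 unit higher without overlap, at 1.01 ± 0.048 (glmTreat adjusted p = 6.2e-08) and 1.01 ± 0.059 (glmTreat adjusted p = 1.23e-06). Enpep, an aminopeptidase of the brush border, was at 20.02, 18.3 and 12.8 CPM in RANKL and 39.5, 39.95 and 40.7 CPM in RANKL II, likewise without overlap (1.22 ± 0.11).

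The villus markers Apoa4, at 1467, 1167 and 931 CPM in RANKL and 1377, 1402 and 1346 CPM in RANKL II, and Sis, the sucrase-isomaltase gene, at 1139, 1049 and 786 CPM in RANKL and 1249, 1234 and 1236 CPM in RANKL II, varied within RANKL, where replicate 3 was lowest for both. The Apoa4 sets overlapped, the Sis libraries of RANKL II were all higher, and neither gene met a rule. Lct, lactase, was low in both sets, at 3.04, 1.91 and 2.14 CPM in RANKL and 0.24, 0.71 and 0.83 CPM in RANKL II (-1.96 ± 0.39, glmTreat adjusted p = 0.00443), and its call was lost with DESeq2 (adjusted p = 0.188). Reg3g, an antimicrobial lectin of the lower villus, was at 506, 508 and 548 CPM in RANKL and 1026, 1019.8 and 1034 CPM in RANKL II, about 1 log2 unit higher (0.98 ± 0.038, glmTreat adjusted p = 6.56e-09). Its neighbour in function Reg3b was at 109.7, 109.7 and 133 CPM in RANKL and 107, 106 and 109.9 CPM in RANKL II, within 1.5-fold. Ccl25, the chemokine that draws lymphocytes to the small intestine, was higher by 0.95 ± 0.041, without overlap.

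Genes of fatty acid oxidation and PPARA, the nuclear receptor that senses fatty acids, included several that were higher in RANKL II. Of 11 tested of 14, 4 (36.4%) were higher past 1.5-fold, beside 2.97% of all genes. The list had 0 lower and 4 within 1.5-fold, with a median of 0.59, and DESeq2 left 1 of the 4 higher calls. Ppara was at 10.9, 10.4 and 12.1 CPM in RANKL and 20.1, 22.3 and 22.6 CPM in RANKL II, and Plin2, a lipid droplet coat protein, at 30.5, 35.9 and 37.7 CPM in RANKL and 63.9, 61.1 and 60.4 CPM in RANKL II. Acadm, the medium-chain acyl-CoA dehydrogenase, was at 51.6, 52.9 and 49.2 CPM in RANKL and 88.4, 87.5 and 87.3 CPM in RANKL II. Each was higher in all RANKL II libraries, by 0.97 ± 0.11, 0.84 ± 0.075 and 0.77 ± 0.056. The Plin2 difference lost its call without RANKL replicate 1 (0.75, glmTreat adjusted p = 0.0557).

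Cpt2 and Acadl, mitochondrial enzymes of fatty acid oxidation, differed by 0.038 ± 0.071 and 0.028 ± 0.069, within 1.5-fold. Adh1, an alcohol dehydrogenase that also oxidises retinol, was at 622, 600.0 and 571 CPM in RANKL and 1029, 1028 and 1029.5 CPM in RANKL II, higher without overlap (0.78 ± 0.037, glmTreat adjusted p = 5.93e-05).

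All 7 mitochondrially encoded mRNAs tested were higher in RANKL II past 1.5-fold, beside 2.97% of all genes, with a median log2 difference of 1.07. The list has 13 members, and the others had too few counts to be tested. With all 12 libraries fitted together, 3 of the 7 were called. mt-Nd4, a subunit of complex I, was at 1188, 1355 and 1378 CPM in RANKL and 3546, 3566 and 3558 CPM in RANKL II, and mt-Co1, a subunit of cytochrome oxidase, at 12752, 14750.0 and 13552 CPM in RANKL and 33288, 33271 and 33176 CPM in RANKL II. Neither overlapped, and the log2 differences were 1.44 ± 0.046 and 1.28 ± 0.045. Nuclear genes of the same complexes moved less, with a median of 0.34. Of 88 tested, 64 were higher by edgeR's quasi-likelihood test and 1 lower, beside 25.8% and 25.7% of all genes. Past 1.5-fold 2 (2.27%) were higher and 51 (58%) lay within it. Both shares are near the 2.97% and 56.6% of all genes. The 2 became 4 without RANKL replicate 1 and 1 without RANKL replicate 2 or 3 or RANKL II replicate 3. Atp5b, a subunit of ATP synthase, differed by 0.30 ± 0.045.

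Cytosolic ribosomal protein genes also shifted slightly and together, 70 of 77 higher and 1 lower by the quasi-likelihood test, against 25.8% and 25.7% of all genes. Their median was 0.43, and 49 (63.6%) lay within 1.5-fold, beside 56.6% of all genes. Past it 6 (7.79%) were higher and 1 (1.3%) lower, beside 2.97% and 5.98%. The 1 lower call was lost without RANKL replicate 2 or RANKL II replicate 1 or 3. Rpl30 was at 84.1, 87.3 and 79.4 CPM in RANKL and 166, 169 and 178 CPM in RANKL II, without overlap (1.03 ± 0.049), whereas Rplp0, a subunit of the ribosomal stalk, was at 984, 1008 and 914 CPM in RANKL and 1012, 1028 and 994 CPM in RANKL II, with overlap and within 1.5-fold. Mitochondrial ribosomal protein genes, 77 tested, had a median of 0.075, and 69 (89.6%) lay within 1.5-fold. The share of ribosomal RNA given above was lower in RANKL II and that of mitochondrial mRNA higher, and their part in these lists was not tested. Without those loci in the totals, the cytosolic list had a median of 0.43 as well. The M cell median likewise hardly moved, from 0.1701 to 0.1704. Leaving the loci out barely changed the scaling of the libraries, so it was no test of their part.

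Stress, metabolic and clock genes are read beside the 56.6% of all genes within 1.5-fold. All 10 heat shock genes tested of 13 lay within it, as did 13 of 16 hypoxia and glycolysis genes (81.2%), 12 of 16 clock genes (75%) and 16 of 22 cholesterol genes (72.7%). Of the p53 targets 9 of 14 did (64.3%), a share near that of all genes. Among the clock genes 1 (6.25%) was higher past 1.5-fold, beside 2.97% of all genes. By the quasi-likelihood test 9 clock genes were higher and 1 lower, beside 25.8% and 25.7% of all genes, with a median of 0.26. No heat shock, hypoxia, cholesterol or p53 gene passed 1.5-fold, except 1 cholesterol gene that was higher without RANKL replicate 1 and 1 that was lower without RANKL replicate 3, and 1 hypoxia gene that was higher with GC offsets. Hspa8, a chaperone, was at 531, 524 and 543 CPM in RANKL and 576, 587 and 593 CPM in RANKL II, and Per2, a clock repressor, at 38.6, 41.2 and 52.2 CPM in RANKL and 45.2, 47.4 and 48.9 CPM in RANKL II. Hspa8 was slightly higher in all RANKL II libraries and Per2 overlapped, both within 1.5-fold.

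Immediate early genes, which respond to stimuli within minutes, were mixed. Of 17 tested of 20, 9 (52.9%) lay within 1.5-fold, near the 56.6% of all genes. Past it 3 (17.6%) were higher, beside 2.97% of all genes. Fosb, an AP-1 subunit, was at 0.38, 0.13 and 0.15 CPM in RANKL and 9.40, 10.2 and 8.56 CPM in RANKL II, Egr2, a zinc finger factor, at 0.25, 0.13 and 0.31 CPM in RANKL and 2.26, 2.01 and 1.66 CPM in RANKL II and Atf3, a stress-induced factor, at 1.52, 2.42 and 1.68 CPM in RANKL and 8.45, 8.51 and 9.58 CPM in RANKL II. All 3 were higher in every RANKL II library, by 5.38 ± 0.33, 3.12 ± 0.48 and 2.24 ± 0.21, from levels near 0 in RANKL. Fos itself, at 30.8, 27.6 and 30.7 CPM in RANKL and 41.3, 42.9 and 39.8 CPM in RANKL II, was higher in all RANKL II libraries with an interval from 0.32 to 0.64 that crosses 1.5-fold, and Junb, at 128, 137 and 131 CPM in RANKL and 150.4, 149 and 134 CPM in RANKL II, lay within it.

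The largest differences among named genes at an average log2 CPM of at least 3 were not confined to these lists. They were taken among genes past 1.5-fold whose sets did not overlap, so the lack of overlap follows from the choice. Fam234a (chr17:26211822-26244242, - strand), a membrane protein gene, was at 66.3, 71.4 and 64.8 CPM in RANKL and 2.14, 1.42 and 1.66 CPM in RANKL II, a log2 difference of -5.29 ± 0.12 (glmTreat adjusted p = 4.52e-17). After Olfm4 followed Cacna2d1, a calcium channel subunit, at 45.9, 45.4 and 47.97 CPM in RANKL and 3.81, 3.55 and 3.22 CPM in RANKL II, and Nox1, the NADPH oxidase of crypt cells, at 94.4, 86.6 and 67.99 CPM in RANKL and 10.8, 11.8 and 11.4 CPM in RANKL II. Their sets did not overlap (-3.73 ± 0.11 and -2.88 ± 0.12). Cit, a kinase of cytokinesis, fell by 2.57 ± 0.17, Dnah8 by 2.56 ± 0.24 and the adhesion receptor gene Adgrl1 by 2.36 ± 0.14.

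In the other direction stood Rnu12, the U12 small nuclear RNA of the minor spliceosome, at 0.76, 0.76 and 0.46 CPM in RANKL and 30.2, 22.7 and 35.3 CPM in RANKL II, a log2 difference of 5.46 ± 0.28 (glmTreat adjusted p = 5.09e-09). Ces1d, a carboxylesterase, was at 4.31, 3.43 and 2.44 CPM in RANKL and 18.6, 21.4 and 20.4 CPM in RANKL II, and Cyp2c55, a cytochrome P450, at 84.9, 65.97 and 72.9 CPM in RANKL and 280.0, 297 and 296 CPM in RANKL II. Slco2b1, an organic anion transporter, was higher by 2.51 ± 0.19, Slc39a5, a zinc transporter, by 1.96 ± 0.12 and the coagulation factor gene F7 by 2.21 ± 0.21. Acta1, an actin gene typical of skeletal muscle, was at 9.12, 15.6 and 14.8 CPM in RANKL and 67.8, 66.2 and 68.04 CPM in RANKL II, and Myl7, a myosin light chain gene typical of the atrium, at 16.5, 18.4 and 11.6 CPM in RANKL and 61.3, 68.7 and 64.8 CPM in RANKL II. In each of these genes all RANKL II libraries were above all RANKL libraries, which the choice of the largest differences required.

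Among genes of highest level that agreed, Eef2, an elongation factor, was at 3125, 3157 and 2934 CPM in RANKL and 3093, 3103 and 3025 CPM in RANKL II, and Actb at 3269, 3249 and 3120.5 CPM in RANKL and 2731, 2751 and 2676 CPM in RANKL II. The intervals were from -0.076 to 0.077 and from -0.31 to -0.17.

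Levels in the 4 groups were set side by side, with all 12 libraries scaled together. The RANKL libraries share their table with ENR control and the RANKL II libraries with RANKL+CSRM617, so no test was made across these pairs. Values are given in the order ENR control, then the RANKL and RANKL II sets, then RANKL+CSRM617, as mean ± SD with n = 3. Spib was at 4.30 ± 1.8, 249.9 ± 7.3, 219 ± 2.7 and 304 ± 7.4 CPM. Tnfrsf11a was at 56.4 ± 2.8, 245 ± 16, 238 ± 8.3 and 259.9 ± 6.6 CPM. For both genes the 2 RANKL sets lay close together and far above the control. As recorded, the control lacks the CHIR99021 and valproic acid step as well as RANKL, so their parts cannot be told apart.

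Lgr5 was at 414 ± 31, 50.7 ± 1.1, 11.3 ± 0.17 and 6.60 ± 0.80 CPM, so both RANKL sets were far below the control and RANKL II was the lower. Mki67 was at 567 ± 38, 519 ± 49.7, 139.8 ± 6.3 and 331 ± 11 CPM: RANKL lay near the control, and RANKL II below all other groups. Fosb was at 0.977 ± 0.66, 0.190 ± 0.12, 8.09 ± 0.55 and 58.9 ± 4.1 CPM, highest in RANKL+CSRM617.

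Some differences separated the tables rather than the RANKL sets alone. With both groups of a table at least 4-fold from both groups of the other, 20 genes were lower and 17 higher in the table of RANKL II, of 11591 genes at 5 CPM or more in any group; this rule was chosen after the values were seen. Fam234a was at 70.5 ± 3.8 CPM in ENR control and 58.2 ± 3.1 in RANKL, against 1.50 ± 0.31 in RANKL II and 1.22 ± 0.45 in RANKL+CSRM617. Zfp2, a zinc finger gene, was at 7.96 ± 1.3 and 6.98 ± 1.1 CPM and had 0 counts in all 6 libraries of the other table. Against a floor of 3 counts over the RANKL II group, Zfp2 was at least 74.2-fold lower there.

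The homeobox genes Hoxb3, Hoxb5 and Hoxb6, which lie in 1 cluster on chromosome 11, were in the opposite class. Hoxb6 was at 0.193, 1.07, 9.05 and 9.00 CPM (means, n = 3), Hoxb5 at 0.403, 0.832, 7.82 and 7.31, and Hoxb3 at 0.581, 0.825, 6.70 and 6.00. All 3 were low in both groups of the first table and similar in both groups of the second. Neurog3 and Lgr5 were among the 20 as well. Cacna2d1 and Acta1 were not: Cacna2d1 was at 1.10 ± 0.97, 40.0 ± 1.2, 3.04 ± 0.19 and 1.08 ± 0.51 CPM, high in RANKL only.

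**Figure D4:**
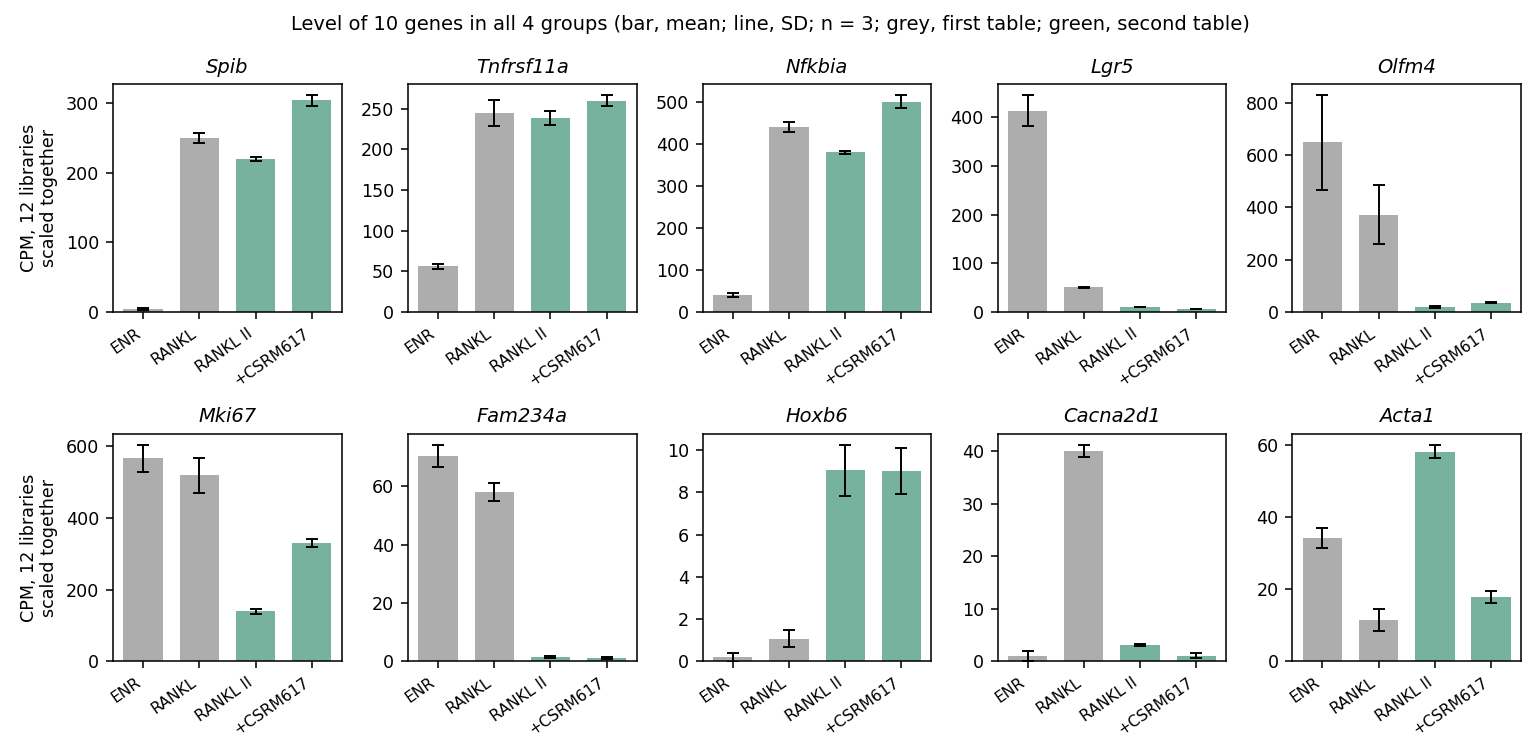
Level in CPM, with 12 libraries scaled together (vertical axes, from 0), of 10 genes in ENR control and RANKL (grey, first table) and RANKL II and RANKL+CSRM617 (green, second table); bars are means, lines SD, n = 3. Fam234a and Hoxb6 follow the table, Spib and Tnfrsf11a are lower in ENR control than in the groups given RANKL, and Mki67 is lowest in RANKL II.

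Genes of chromosome 12 were shifted downward as a group. The median log2 difference of its 517 tested genes was -0.32, 79.9% of them were below 0, and 61 (11.8%) were lower and 4 higher past 1.5-fold, against 5.98% and 2.97% of all genes. Medians of the other 19 chromosomes, X included, lay between -0.043 and 0.087. Over 20 settings the chromosome 12 median stayed between -0.36 and -0.31, while the others ranged from -0.062 to 0.092. It was below 0 in all 6 windows of 20 Mb, from -0.40 to -0.13.

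In single libraries each of 392 chromosome 12 genes was taken as its deviation from its own mean over the 12 libraries. The median deviation, less that of the other chromosomes, was 0.19 ± 0.031 in RANKL and 0.20 ± 0.038 in ENR control. It was -0.15 ± 0.0080 in RANKL II and -0.25 ± 0.013 in RANKL+CSRM617 (log2, mean ± SD, n = 3). The 12 libraries together set 0, so these values compare libraries and do not give the level of chromosome 12 against other chromosomes. The libraries of the RANKL table were all above 0 and those of the RANKL II table all below it, with RANKL+CSRM617 below RANKL II without overlap. That last step was not particular to chromosome 12. In the fit of RANKL+CSRM617 against RANKL II its median log2 difference was -0.085, in a range from -0.34 on X to 0.18 on chromosome 19. In RANKL+CSRM617 library 1 the lowest other chromosome, at -0.2017, was level with chromosome 12, at -0.2015. Nfkbia and Tnfaip2, described above, lie on chromosome 12 and had lower levels in every RANKL II library, whereas Fos and Agr2, a goblet cell disulfide isomerase, lie there and had higher ones (0.48 ± 0.077 and 0.34 ± 0.077). What produced the shift was not tested.

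**Figure D5:**
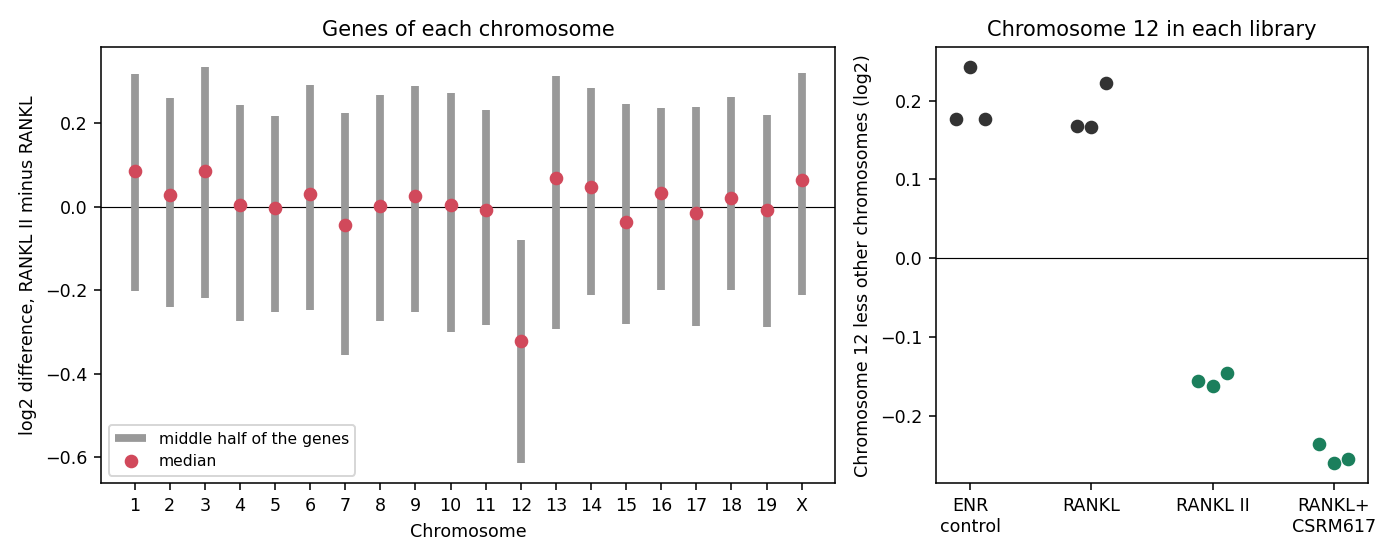
Left, log2 difference (RANKL II minus RANKL) of the genes of each chromosome, as median (point) and interquartile range (bar); chromosome 12 has a median of -0.32 and the others lie between -0.043 and 0.087. Right, median deviation of chromosome 12 genes from their means over the 12 libraries, less that of other chromosomes (log2), in each library. It was above 0 in ENR control and RANKL and below 0 in RANKL II and RANKL+CSRM617, where 0 is set by the 12 libraries together.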

How the data were processed

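Total RNA, 1 µg per library and depleted of ribosomal RNA, was sequenced as 42-bp paired reads, per the labels' protocols. The values are raw counts per gene symbol in 2 tables deposited by the authors. STAR, HTSeq 0.13.5 and DESeq2 1.34.0 are named per the submitters' processing notes; which STAR release, gene models and strandedness were used is not given in the sources here, and antisense or overlapping genes may share reads. The 2 RANKL sets were joined by symbol and scaled together by TMM in edgeR 4.0.16 (R 4.3.3). Genes passing edgeR's low-count filter were fitted by quasi-likelihood without a replicate block, and differences past 1.5-fold were tested with glmTreat at a Benjamini-Hochberg adjusted p of 0.05. DESeq2 1.42.0, other scalings, filters, GC offsets, thinned counts, a replicate block and each library left out were alternatives. The fits were tested on simulated counts. Same-numbered libraries of the sets did not deviate together (correlations -0.0094, -0.017 and -0.0044), so numbers were not treated as pairs. Coordinates, gene types and GC content are from GENCODE on GRCm38, promoters from RefSeq.

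The comparison, its members and the gene lists were chosen with earlier results of these data known. Genes are named where they belong to a core list, to the 12 largest differences in each direction at an average log2 CPM of at least 3, to the up to 4 leading members of a list past 1.5-fold, to the up to 3 members of highest level within 1.5-fold, or to the 10 genes of highest level within it. The 12 largest differences in each direction were taken among genes past 1.5-fold by glmTreat whose sets did not overlap. Traf3, Bcl3, Pcna, Cdc20, Top2a and the Hoxb genes were added after their values were seen. Of the genes this rule names, 2 are not reported here. Precision is limited by 3 libraries per set.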

Additional observations from a re-analysis of the deposited data

How the results depend on the processing

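None of 148 genes tracked over 19 alternatives reversed its call, and 18 lost it in at least 1 of them, 15 with DESeq2. Past 1.5-fold, DESeq2 called 220 genes higher and 507 lower, and a mean count of at least 50 left 270 higher. A bound of 1.25-fold gave 1278 higher, 1648 lower and 3509 within it, and a bound of 2-fold gave 123 higher and 366 lower. Leaving out each library in turn gave 3159 to 3646 genes that differ higher and 3151 to 3794 lower, 352 to 444 higher and 757 to 918 lower past 1.5-fold, and 7319 to 7769 within it. With the replicate number as a block, 3554 and 3516 genes differed, 405 and 824 passed 1.5-fold higher and lower, and 7896 lay within it; with GC offsets and the block, 401 and 791 passed. With RANKL II replicates 1 and 2 summed, an alternative chosen after seeing the data like the sum of all 3, 387 were higher and 823 lower. Where counts moved, the cause was not tested. Proliferation genes numbered 19 lower in each of 20 settings, stem cell genes 9 to 12 lower, and RANK and NF-kB genes 14 to 16 within 1.5-fold. The M cell list had 0 to 3 higher and the fatty acid oxidation list 1 to 4. Depth limits genes at 1 to 10 CPM, most of which met neither rule.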

Other observations

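Part of the small structured RNAs tested were higher in RANKL II and none of the 3 classes below had a lower one. Of 53 snoRNA genes tested, 17 (32.1%) were higher past 1.5-fold by glmTreat and 0 lower, with a median log2 difference of 0.60. Over all genes 2.97% were higher and 5.98% lower. Of 19 snRNA genes 7 were higher and 0 lower, and of 8 scaRNA genes 2 were higher and 0 lower. Among 11611 protein-coding genes 321 were higher and 778 lower. snoRNAs and scaRNAs guide RNA modification and snRNAs form spliceosomes. The share of all counts in small RNA genes was 0.0947% ± 0.00078 in RANKL and 0.128% ± 0.0084 in RANKL II (SD, n = 3), without overlap (exact two-sided permutation p = 0.10, the smallest possible). Many of these genes are shorter than a usual fragment or lie within introns of other genes, so their counts are uncertain.

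Numbered zinc finger genes, which encode a large family of DNA-binding repressors, lay within 1.5-fold in 195 of 311 tested (62.7%), a share near the 56.6% of all genes, with a median of -0.036. Past it 3 (0.965%) were higher and 16 (5.14%) lower, beside 2.97% and 5.98% of all genes. The 16 ranged from 4 with DESeq2 to 16 over 20 settings, with 10 without RANKL II replicate 3. Of the EGF family and its receptors 8 of 10 lay within 1.5-fold, and the member past it was Hbegf, a heparin-binding ligand, higher in RANKL II by 1.05 on the log2 scale. MHC class I genes lay within 1.5-fold in 8 of 10.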
